A study of Mus musculus with 36 samples.

Results

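Induced pluripotent stem cells (iPSCs) that lack Zfp266 were compared with embryonic stem cells (ESCs) that lack the same gene. The members were 6 of the 36 RNA-seq libraries of the series, namely all 3 Zfp266 KO iPSC libraries and all 3 Zfp266 KO ESC libraries. Zfp266 encodes a KRAB zinc finger protein, and the comparison asks how far iPSCs made without it differ from ESCs without it. All groups go back to 1 ESC line, Cas9 TNG MKOS (Clone J), derived from E14tg2a ESCs of 129 background, with Cas9 at Rosa26, an inducible cassette of Myc, Klf4, Oct4 and Sox2 at Sp3, and a Nanog-GFP-ires-Puro reporter. KO iPSCs came from mouse embryonic fibroblasts (MEFs) of chimeric embryos made with these ESCs. These MEFs received a lentiviral Zfp266 sgRNA and a reprogramming medium with doxycycline and ascorbic acid (vitamin C). Nanog-GFP+ cells were sorted on day 15, and clones were grown without doxycycline under puromycin and genotyped. KO ESCs were single BFP+ cells of the parental ESC line transfected with a plasmid carrying the Zfp266 sgRNA and BFP, grown into clones that had lost BFP and were genotyped. WT iPSCs from a control sgRNA (3 libraries), WT ESCs (3 libraries of the parental line) and WT MEFs (3 libraries) served as references. The iPSC and ESC groups therefore differ in passage through an embryo and MEFs, in reprogramming and its medium, and in how the sgRNA was delivered. These differences cannot be told apart. The study's methods also name library preparation date as a batch effect, which was removed there for exploratory work. No term for that date was fitted here, and its part in the comparison was not tested. Each KO library was 1 clone. The p-values rest on a spread estimated over all 36 libraries of 12 groups, and not on the spread between these clones alone.

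iPSCs and ESCs are both pluripotent, and express the core factors Oct4 (Pou5f1), Sox2 and Nanog. Imprinted genes are those of which only the maternal or the paternal copy is normally read, and DNA methylation laid down in the germ line marks which one. These marks are normally kept in the cells of the body, and imprinted genes are known to vary between pluripotent lines in culture. Extraembryonic endoderm, an early lineage of the embryo that can also arise in cultures of pluripotent cells, is marked by Gata6, Gata4, Sox7 and Sox17 and secretes the collagen IV and laminin of the basement membrane.

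Total counts were 29670475 to 34461267 in the 6 KO libraries. Normalised counts (raw counts divided by the DESeq2 size factor of the library) of Zfp266 were 1954, 1892 and 2212 in KO iPSC clones 1 to 3 and 2191, 1969 and 2222 in KO ESC clones 1 to 3, and did not differ by test (log2FC -0.08, FDR 0.647). The transcript was present in all 6 libraries, so that its count is no check of the edit. Log2 levels of 12173 genes correlated at r = 0.987 to 0.996 among the KO ESC clones. The values against KO ESC clones were 0.975 to 0.978 for KO iPSC clone 1, 0.979 to 0.98 for clone 2 and 0.982 to 0.991 for clone 3. Against the other KO iPSC clones they were 0.978 to 0.983, 0.976 to 0.983 and 0.976 to 0.978. Clone 3 was thus closer to the ESC clones than to the other iPSC clones, across genes that are not independent.

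KO iPSC clones 1 and 2 and KO ESC clone 2 stood apart over long stretches of a chromosome. Chromosome 8 genes were raised in KO iPSC clone 2, with a median log2 level of 0.51 over the WT ESC mean. On distal chromosome 12 (GRCm38 chr12:98202294-113137206, 94 genes with a mean of at least 100 normalised counts) the median was 0.49 in KO iPSC clone 1 and 0.51 in clone 2, or 1.40 and 1.43 times the WT ESC level, and 0.04 in clone 3. In the middle of chromosome 14 (chr14:72537946-79635196, 38 genes) KO ESC clone 2 had a median of -0.95, or 0.52 times. An example is Rb1, the retinoblastoma tumour suppressor, with 512, 202 and 445 normalised counts in the KO ESC clones. KO iPSC clone 3 was not raised in any of these stretches, whose bounds were set after the values were seen. The cause of these stretches was not tested. For genes named from these stretches, values with other sets of clones are given beside the call.

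**Figure D1:**
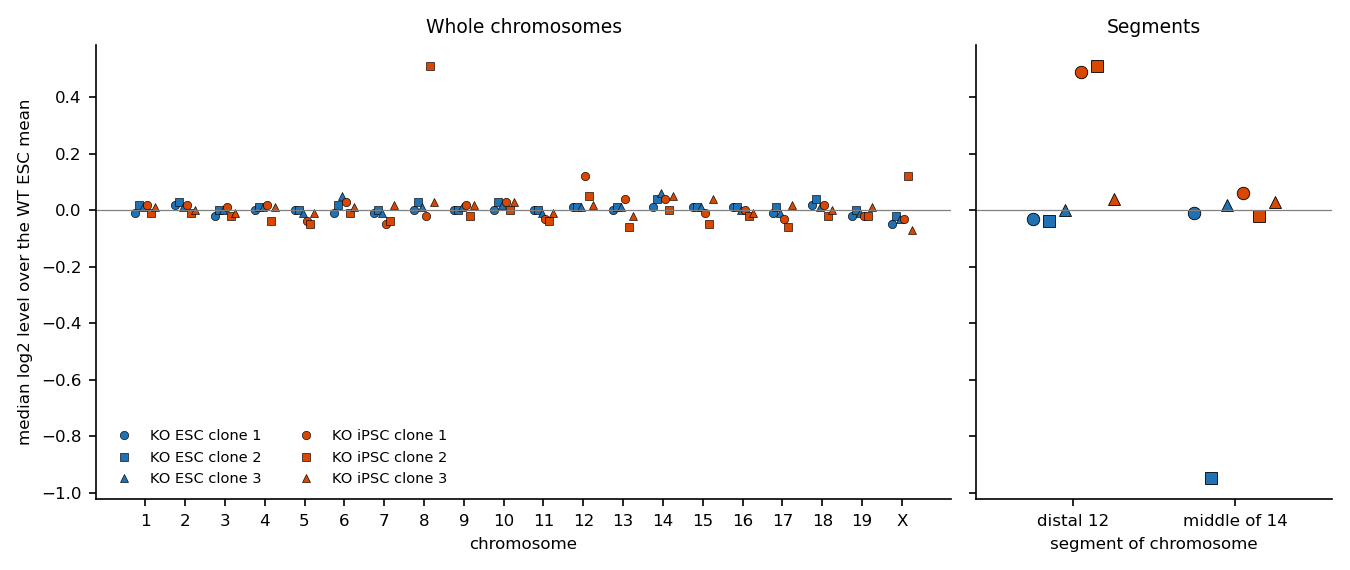
Median log2 level over the WT ESC mean per chromosome (left) and in a segment of chromosome 12 and of chromosome 14 (right) in the 6 KO libraries, over genes with a mean of at least 100 normalised counts. Chromosome 8 stands at 0.51 in KO iPSC clone 2, distal chromosome 12 at 0.49 and 0.51 in clones 1 and 2, and the chromosome 14 segment at -0.95 in KO ESC clone 2.

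KO iPSCs differed from KO ESCs mainly by genes that were higher. Of 17279 genes tested, 1080 had an FDR under 0.05 (6.25%), 702 higher in KO iPSCs (4.06%) and 378 lower (2.19%). Differentially expressed genes (DEGs), defined by FDR < 0.05 and |log2FC| > 1, numbered 248 (1.44%), with 229 higher (1.33%) and 19 lower (0.11%). The 3 iPSC and 3 ESC libraries did not overlap for 137 of the higher and 18 of the lower DEGs, against 17.7% of all genes tested. Most higher DEGs were of low expression, with a KO iPSC mean under 100 normalised counts in 147 of 229.

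The clones contributed unequally. Clone 1 was the highest of the 3 KO iPSC libraries for 174 of the 229 higher DEGs (76%), clone 2 for 42 (18.3%) and clone 3 for 13 (5.68%), while over all genes tested the shares were 36.7, 28 and 35.3%. The median log2 level of these DEGs over the KO ESC mean was 1.99 in clone 1, 1.26 in clone 2 and 0.66 in clone 3, on a log2(count + 1) scale. Clone 3 lay above all KO ESC libraries for 156 of them, a count favoured in advance because clone 3 took part in the call. The share over all genes was not computed. Without clone 1 the number of DEGs was 80 (69 higher) and 1.99% of 16450 genes had an FDR under 0.05. Without clone 2, whose chromosome 8 is raised, 229 DEGs were called, 164 of them shared with the 248, and 6.23% of 15203 genes had an FDR under 0.05. Without clone 3 the number was 553. Clone 3 alone against the 3 KO ESC clones gave 40 DEGs (31 higher and 9 lower, of 13126 genes tested, 0.305%, where 1.37% had an FDR under 0.05), with the lone clone assumed to vary like the other groups. A fit of only the 6 KO libraries gave 68. Of the 248 DEGs, 49 (42 higher, 7 lower) were called in each of the 6 fits that left out 1 library, and 16 were also DEGs in the same direction with clone 3 alone. Those 16 were Plagl1, H19, Sgce, Sptb, Chst15, Zbtb4, Misp, Igfbp4, Pygl, Cdc42ep1, Dpep1 and Plcl1, which were higher, and Grb10, Fgf18, Napsa and Pqlc1, which were lower.

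**Figure D2:**
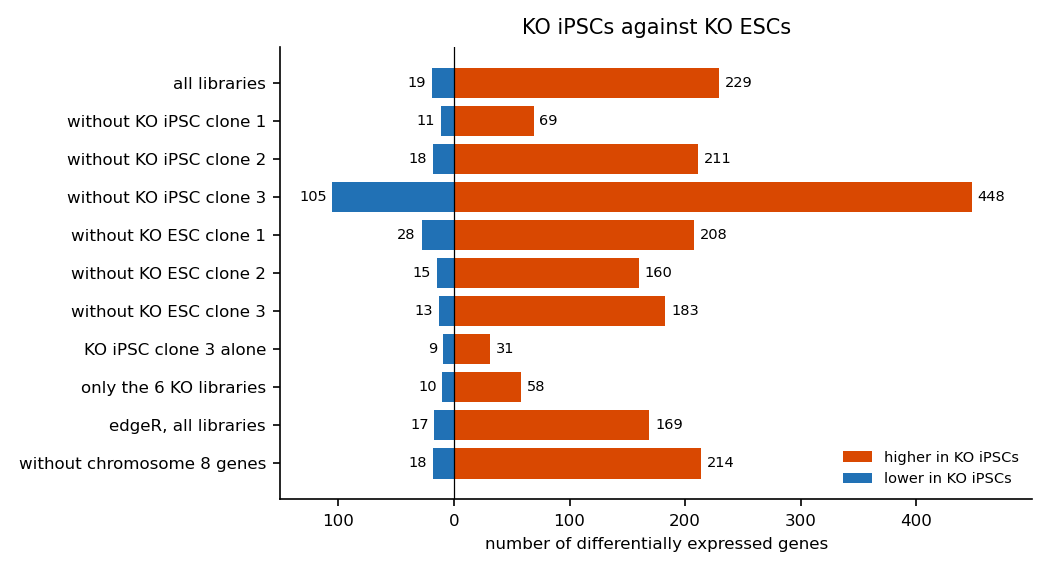
Number of DEGs higher (right) and lower (left) in KO iPSCs than in KO ESCs in the fit of all libraries and under other choices. The count of higher DEGs runs from 229 with all libraries to 69 without KO iPSC clone 1, 448 without clone 3 and 31 with clone 3 alone.

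Imprinted genes were among the largest differences. Plagl1, H19, Nnat and Peg13 were higher in all 3 KO iPSC clones, and Grb10, Phlda2 and Cdkn1c were lower. Of 38 listed imprinted genes outside the Dlk1-Dio3 cluster, 37 were tested, and 8 were higher and 4 lower in KO iPSCs at FDR < 0.05, 6 and 3 of them DEGs. Among all genes 4.06% were higher and 2.19% lower. The median log2FC of the list was 0.24, beside 0.02 over all genes tested, a value that the very low counts of Peg13 and Nnat cannot move, since both lie above it even at the lower end of their counting intervals. Without KO iPSC clone 1, 5 were higher and 3 lower, and with clone 3 alone 4 and 1. In WT cells 7 of 27 tested members were higher and 3 lower, beside 2.11% and 1.09% of all genes. Of the 22 tested genes that are usually read from the paternal copy, 7 were higher and 1 lower, and of the 14 usually read from the maternal copy, 1 was higher and 3 lower, a division made after the values were seen. Some members overlap genes on the opposite strand (Kcnq1ot1 and Kcnq1, Mest and Copg2, Gnas and Nespas), and the strand setting of the counting was not given.

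Plagl1, a paternally expressed zinc finger factor that restrains growth, had the lowest FDR. Its normalised counts were 306, 292 and 138 in the KO iPSC clones and 6.28, 3.89 and 2.69 in the KO ESC clones, so the lowest iPSC clone was far above the highest ESC clone. The log2FC was 5.84 (SE 0.49, FDR 2.3e-28), and 5.01 (FDR 7.6e-15) with clone 3 alone. WT cells showed the same order, with 124, 127 and 234 in WT iPSCs and 5.02, 5.06 and 8.69 in WT ESCs (log2FC 4.67, FDR 1.2e-21), and MEFs had 1228, 1551 and 1331.

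H19, a maternally expressed noncoding RNA, had 905, 307 and 2412 normalised counts in KO iPSCs and 20.6, 18.5 and 31.4 in KO ESCs. The groups did not overlap, although the iPSC clones themselves spread widely (log2FC 5.68, SE 0.73, FDR 3.2e-11). WT iPSCs had 440, 304 and 981 and WT ESCs 11, 10.1 and 20 (log2FC 5.38, FDR 3.9e-09). In MEFs H19 reached 85489 to 92137 normalised counts.

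Nnat and Peg13 were nearly absent from KO ESCs. Nnat, a paternally expressed membrane proteolipid, had 67.9, 31.2 and 50.5 normalised counts in KO iPSCs and 0, 0.973 and 0.897 in KO ESCs. These are 154 raw counts against 2, a ratio of 79.7 (95% exact interval 21.7 to 664, counting error only, FDR 1.2e-06). Peg13, a paternally expressed long noncoding RNA, had 94.8, 81.6 and 29.3 against 0, 0 and 1.79, or 218 raw counts against 2 (ratio 113, interval 30.9 to 938, FDR 3.5e-07). Both were near 0 in WT ESCs as well, with 3.01, 2.02 and 2.61 for Nnat and 0 in all 3 libraries for Peg13. WT iPSCs had 55.3 to 116 for Nnat and 63.9 to 74.1 for Peg13.

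The other higher members differed less. Sgce, a paternally expressed sarcoglycan, had 229, 106 and 189 normalised counts against 51.2, 79.8 and 87 (log2FC 1.26, FDR 1.9e-05). Its neighbour Peg10, a gene derived from a retrotransposon, had 12663, 7856 and 12117 against 5718, 6361 and 5605 (log2FC 0.88, FDR 0.003), and Snrpn, a splicing protein gene, a log2FC of 0.50 (FDR 0.008). In all 3 the groups did not overlap. Without clone 1 Sgce was still called, while Peg10 had a log2FC of 0.76 (FDR 0.070) and Snrpn 0.19 (FDR 0.266).

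Grb10, an adaptor that dampens insulin and growth factor receptor signalling, was the most strongly reduced imprinted gene. It had 310, 523 and 629 normalised counts in KO iPSCs and 1868, 5213 and 3709 in KO ESCs (log2FC -2.88, SE 0.36, FDR 7.9e-12). The highest iPSC clone was below the lowest ESC clone, and the call held with clone 3 alone (log2FC -2.51, FDR 4.2e-04). WT iPSCs had 103, 900 and 411 and WT ESCs 2046, 2126 and 2224 (log2FC -2.18, FDR 5.2e-06).

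On distal chromosome 7, Phlda2 and Cdkn1c lie in 1 imprinted cluster with Kcnq1ot1, a paternally expressed noncoding RNA. Phlda2, which limits placental growth, had 255, 239 and 681 normalised counts in KO iPSCs against 1294, 905 and 773 in KO ESCs (log2FC -1.34, SE 0.30, FDR 9.1e-04). Cdkn1c, a cyclin-dependent kinase inhibitor, had 313, 185 and 317 against 865, 562 and 388 (log2FC -1.16, FDR 0.002). Kcnq1ot1 had 480, 332 and 403 against 214, 166 and 110 (log2FC 1.31, FDR 0.010). The groups did not overlap for any of the 3, yet none of the 3 passed with clone 3 alone. The log2FC there was -0.54 for Phlda2 (FDR 0.490), -0.93 for Cdkn1c (FDR 0.247) and 1.30 for Kcnq1ot1 (FDR 0.222), so that for Kcnq1ot1 the size was that of all clones. Kcnq1ot1 also did not pass without KO iPSC clone 1 or KO ESC clone 3, nor Cdkn1c without KO ESC clone 1. Impact, a translation regulator, was lower by a log2FC of -0.43 (FDR 0.005), and did not pass without clone 1 (-0.27, FDR 0.135).

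The promoters of Plagl1, Nnat, Grb10 and Phlda2 are shown because these 4 imprinted DEGs include both directions, and CpG dinucleotides are where methylation marks of imprinting are written. Each is 300 bases of GRCm38.p6 from RefSeq, from 250 bases before to 50 after the transcript start, read 5′ to 3′ on the gene's strand, with every CpG in capitals. Methylation was not measured, and whether these windows are the sites of the imprint marks was not tested.
Plagl1 (chr10:13090582-13090881, plus strand, an internal start of the gene): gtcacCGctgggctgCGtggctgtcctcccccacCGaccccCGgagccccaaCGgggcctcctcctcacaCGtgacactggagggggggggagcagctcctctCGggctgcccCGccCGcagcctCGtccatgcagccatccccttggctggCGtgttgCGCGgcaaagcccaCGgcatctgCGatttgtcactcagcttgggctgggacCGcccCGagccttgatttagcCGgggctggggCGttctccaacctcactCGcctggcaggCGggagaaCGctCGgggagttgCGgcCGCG
Nnat (chr2:157559828-157560127, plus strand, ending in the first exon): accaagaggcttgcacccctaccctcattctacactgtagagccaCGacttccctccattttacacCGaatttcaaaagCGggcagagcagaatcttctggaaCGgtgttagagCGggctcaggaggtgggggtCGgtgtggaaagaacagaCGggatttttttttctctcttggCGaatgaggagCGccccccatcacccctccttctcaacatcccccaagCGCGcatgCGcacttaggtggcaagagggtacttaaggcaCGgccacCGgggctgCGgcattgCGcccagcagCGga
Grb10 (chr11:12037371-12037670, minus strand, the richer of 2 starts): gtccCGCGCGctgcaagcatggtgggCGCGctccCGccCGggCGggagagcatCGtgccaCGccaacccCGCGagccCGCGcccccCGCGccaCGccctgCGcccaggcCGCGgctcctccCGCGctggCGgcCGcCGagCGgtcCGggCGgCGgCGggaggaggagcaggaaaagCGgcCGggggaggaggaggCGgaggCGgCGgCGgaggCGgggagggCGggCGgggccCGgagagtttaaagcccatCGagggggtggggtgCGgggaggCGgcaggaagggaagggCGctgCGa
Phlda2 (chr7:143502475-143502774, minus strand, near the 5′ end of the gene): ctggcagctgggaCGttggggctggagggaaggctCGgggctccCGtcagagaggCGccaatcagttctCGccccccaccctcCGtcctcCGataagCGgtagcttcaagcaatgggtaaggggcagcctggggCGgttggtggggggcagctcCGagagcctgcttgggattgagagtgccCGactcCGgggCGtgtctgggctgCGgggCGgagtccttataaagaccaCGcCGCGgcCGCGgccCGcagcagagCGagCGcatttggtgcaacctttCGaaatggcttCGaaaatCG

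These windows hold 26 CpG in Plagl1, 17 in Nnat, 45 in Grb10 and 26 in Phlda2, where the median of 32851 RefSeq promoters is 7. At least as many are found in 16.9% of promoters for Plagl1 and Phlda2, 31.4% for Nnat and 1.93% for Grb10. The letters TGCCGC or the reverse complement GCGGCA, the motif of the imprint-maintaining factor ZFP57, occur 1 time each in Plagl1, Nnat and Grb10 and 0 times in Phlda2. They occur in 11.6% of all promoters, each match contains 1 of the CpG counted, and a match of letters is not a bound site.

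**Figure D3:**
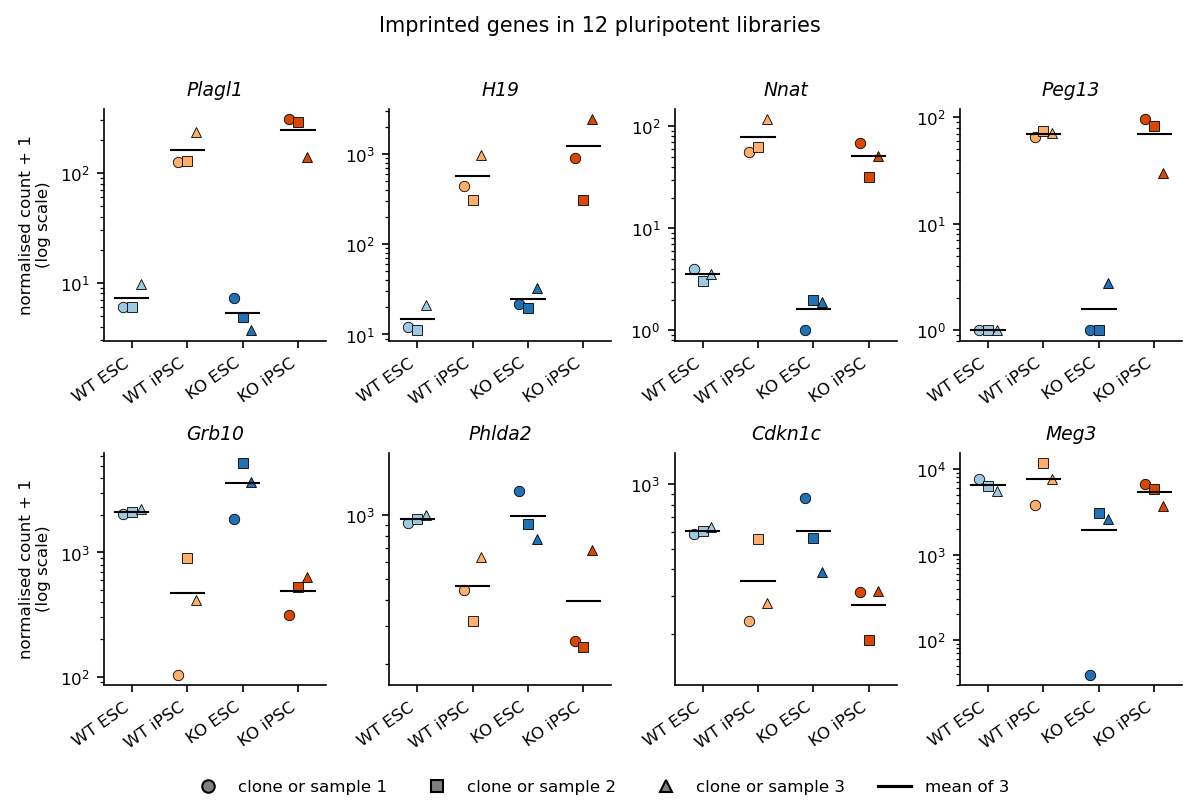
Normalised counts plus 1, on log axes, of 8 imprinted genes in the 12 pluripotent libraries, with 1 symbol per clone or sample and a line at the mean of 3. Plagl1, H19, Nnat and Peg13 are higher in KO iPSCs (306, 905, 67.9 and 94.8 in clone 1) than in every KO ESC clone, Grb10, Phlda2 and Cdkn1c are lower, and Meg3 is at 38.6 in KO ESC clone 1.

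The Dlk1-Dio3 cluster, an imprinted domain whose maternal noncoding RNAs Meg3, Rian and Mirg have been used to tell iPSC lines apart, was not called higher apart from 1 gene. Of 7 listed members, 6 were tested and 1 passed, Dio3, a thyroid hormone deiodinase (29.9, 36.5 and 21.2 against 21.5, 10.7 and 8.07 normalised counts, log2FC 1.12, FDR 0.048). The cluster lies within the distal chromosome 12 segment that is raised in clones 1 and 2, and the part of that segment in this result was not tested. Dio3 did not pass without clone 1 (log2FC 1.11, FDR 0.150), without clone 2 (0.92, FDR 0.192) or with clone 3 alone (0.65, FDR 0.673). Meg3 had 6735, 5888 and 3680 normalised counts in KO iPSCs and 38.6, 3094 and 2625 in KO ESCs. Rian had 15843, 14498 and 7733 against 62.8, 7333 and 6768, and Mirg 672, 628 and 338 against 0, 353 and 286. KO ESC clone 1 stood apart with very low levels of all 3 RNAs. The iPSC libraries were above every ESC library for Meg3 and Rian, while for Mirg the groups overlapped. With that spread the FDRs were 0.163, 0.211 and 0.322. Without KO ESC clone 1, the log2FC of Meg3 was 0.93 (FDR 0.094) and that of Rian 0.85 (FDR 0.091).

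Several endoderm markers were higher in KO iPSCs, mostly through clone 1. Of 12 listed endoderm markers, 8 were tested, and 5 were higher and 0 lower (Gata6, Gata4, Sox7, Dab2 and Col4a1), all DEGs, with a median log2FC of 1.53. Among all genes tested 4.06% were higher, and 1.33% were higher DEGs. Without clone 1 only 1 was called (Col4a1), with clone 3 alone 0 (DESeq2, 1 at an unadjusted p under 0.05), and in the fit of only the 6 KO libraries 0. The summed normalised count of the 11 markers in the table was 15818 in clone 1, 8905 in clone 2 and 5219 in clone 3, against 4312 to 5919 in the KO ESC clones and 63008 to 63648 in MEFs, where Col4a1 and other members are high. In these bulk samples more cells of a type and more RNA per cell cannot be told apart.

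Gata6 had 204, 12.2 and 16.2 normalised counts in the KO iPSC clones and 19.7, 9.73 and 9.87 in the KO ESC clones (log2FC 2.55, FDR 0.003). Sox7 had 83.9, 4.34 and 6.06 against 4.49, 3.89 and 1.79, and Dab2, an endocytic adaptor of this lineage, 649, 46 and 69.7 against 65.5, 94.4 and 77.2. For these 3 genes clone 1 stands alone and the other iPSC clones lie within or close to the ESC range. Gata4 had 255, 78.1 and 45.5 against 54.8, 40.9 and 49.3 (log2FC 1.38, FDR 0.005). Among markers without a call, Sox17 had 64.9, 1.74 and 11.1 against 10.8, 3.89 and 0, Pdgfra 399, 46 and 21.2 against 35, 18.5 and 23.3, Foxa2 17, 0 and 4.04 against 7.18, 2.92 and 1.79, and Afp at most 1.01 in any KO library.

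Col4a1 and Col4a2, the paired chains of collagen IV, were also raised in clone 2. Col4a1 had 4846, 1408 and 303 normalised counts against 276, 330 and 275 (log2FC 2.90, SE 0.47, FDR 3.3e-07). Col4a2 had 2150, 376 and 148 against 133, 120 and 88.8 (log2FC 2.97, FDR 3.9e-07). With clone 3 alone the log2FCs were 0.05 (FDR 0.981) and 0.39 (FDR 0.722). Both genes are on chromosome 8, which is raised in clone 2, and the highest level was in clone 1, where chromosome 8 was not raised (median -0.02). Both genes overlap on opposite strands, so their counts may share reads. Clone 1 was also the highest for Sparc, a matrix glycoprotein, with 5242, 2496 and 1346 against 1455, 1282 and 1202 (log2FC 1.21, FDR 0.003) and Cubn, the endocytic receptor cubilin, with 1035, 31.2 and 7.07 against 17.1, 6.81 and 11.7 (FDR 1.4e-05), both named after their values were seen. Neither passed without clone 1 (FDR 0.296 and 0.682). Lama1, a laminin chain, did not pass, with 6195, 6057 and 1653 against 1956, 2261 and 3090 (log2FC 0.93, FDR 0.127).

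**Figure D4:**
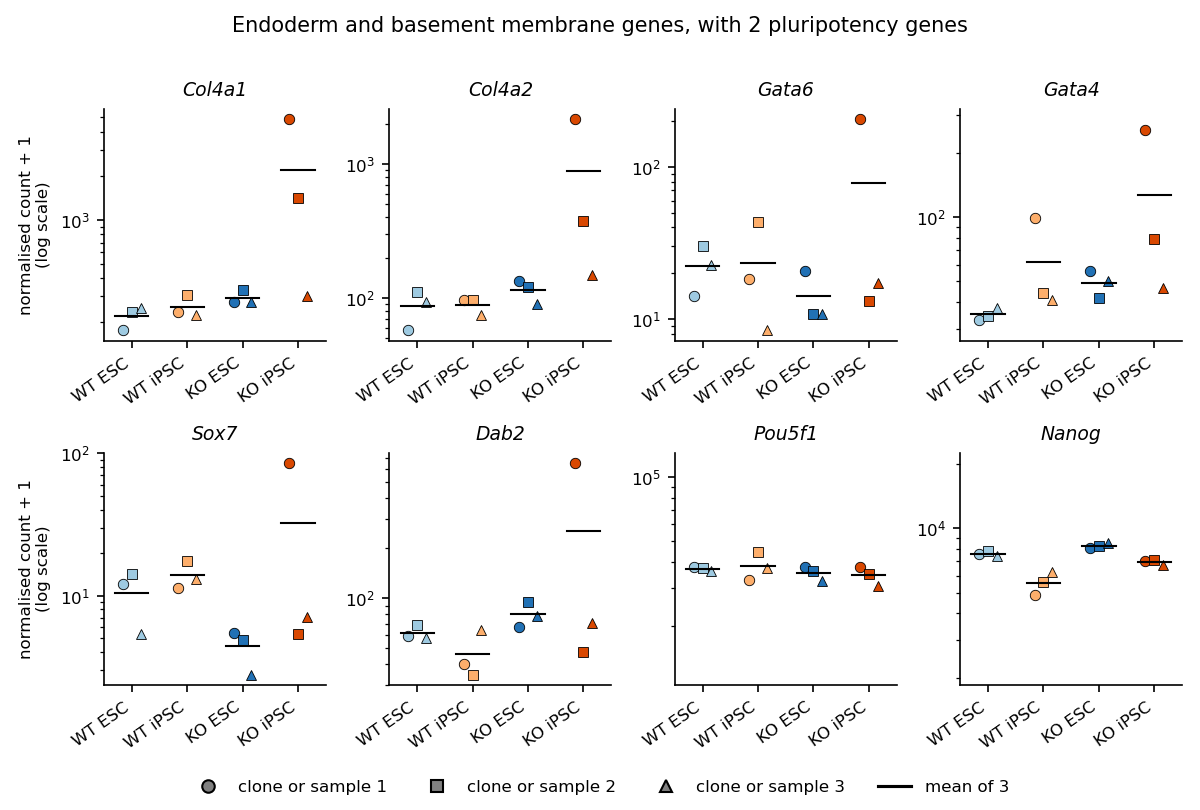
Normalised counts plus 1, on log axes, of 6 endoderm and basement membrane genes and of Pou5f1 and Nanog in the 12 pluripotent libraries, with a line at the mean of 3. KO iPSC clone 1 (circle) stands highest for Col4a1 (4846), Gata6 (204) and Dab2 (649), while Pou5f1 and Nanog vary little.

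Of 16 naive pluripotency factors, 1 was higher and 0 lower, which is the 6.25% called among all genes tested. The 1 was Tbx3, a T-box factor, with 4490, 4146 and 2458 normalised counts against 2639, 2387 and 2134 (log2FC 0.63, FDR 0.029), a call lost without clone 1 (0.47, FDR 0.272), without clone 2 (0.54, FDR 0.125), without KO ESC clone 2 or 3, and with clone 3 alone (0.04, FDR 0.980). Pou5f1 had 37832, 34921 and 30729 against 37665, 36331 and 32585 (log2FC -0.04, FDR 0.889), and Sox2 a log2FC of -0.15 (FDR 0.699). Nanog had 7067, 7142 and 6757 against 8063, 8284 and 8586. Every iPSC clone was below every ESC clone for Nanog, but the difference did not pass (log2FC -0.25, FDR 0.328). The summed count of the 16 factors was 130755 to 148005 in KO iPSCs and 150432 to 152664 in KO ESCs. None of 17 late pluripotency genes passed in DESeq2 (1 at an unadjusted p under 0.05) or in edgeR, and 1 was lower without clone 3. Of 14 tested primed and early lineage genes, 3 were higher, Gata4, Gata6 and Eomes, a T-box factor of mesendoderm and trophoblast (165, 63.4 and 93.9 against 53, 43.8 and 46.7, log2FC 1.16, FDR 0.019). Without clone 1 this list had 0 calls in DESeq2, with Eomes at 0.71 (FDR 0.283), and the fit of only the 6 KO libraries also gave 0, where edgeR on all libraries gave 2 and 6 had an unadjusted p under 0.05.

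Genes of the raised stretches made up part of the smaller differences. On distal chromosome 12, 53 of 144 tested genes were higher at FDR < 0.05 and 0 lower in DESeq2, against 4.06% higher among all genes, with a median log2FC of 0.39. With clone 3 alone 0 of 110 passed (19 at an unadjusted p under 0.05). Zc3h14, a poly(A)-binding protein gene there, had 4402, 4391 and 2974 normalised counts against 2711, 2801 and 2925 (log2FC 0.48, FDR 2.9e-05, and 0.08 with clone 3 alone). Of the 144 genes of this segment, 9 were DEGs, all higher, where 1.33% of all genes tested were higher DEGs. Among the 9 were Rin3, a Rab5 exchange factor (61.9, 53.8 and 25.3 against 10.8, 16.5 and 11.7), and Bcl11b, a zinc finger repressor (65.9, 94.6 and 42.4 against 30.5, 11.7 and 22.4). Both passed without clone 1 (log2FC 1.64 and 1.67) and without clone 2 (1.76 and 1.32), but not with clone 3 alone (0.97 for each, FDR 0.233 and 0.374). On chromosome 8, 53 of 871 genes were higher and 10 lower, and without clone 2 15 of 772 were higher and 17 lower. Chromosome 8 held 16 DEGs with all clones, all higher and of 871 genes tested, beside the same 1.33% of all genes. It held 8 DEGs without clone 2. Cpe, carboxypeptidase E, is 1 of the 16 and had 655, 865 and 53.5 against 74.5, 79.8 and 70 (log2FC 2.81). Its log2FC was 2.24 (FDR 3.0e-04) without clone 2 and -0.48 (FDR 0.496) with clone 3 alone. Outside chromosome 8 and the segments lay 221 of the 248 DEGs, 202 higher and 19 lower.

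Other genes were named for a low FDR or a large difference. The rule took only DEGs whose libraries did not overlap, so that separation of the groups was fixed in advance. Acaa2, a mitochondrial thiolase of fatty acid oxidation, had 1692, 1335 and 856 normalised counts against 523, 610 and 600 (log2FC 1.16, SE 0.15, FDR 7.9e-12), and still differed with clone 3 alone (log2FC 0.57, FDR 0.009). Zc3hav1, the zinc finger antiviral protein, had 1717, 1585 and 836 against 569, 662 and 589 (log2FC 1.19, FDR 1.1e-10), with an FDR of 0.051 for clone 3 alone. Elf4, an ETS factor, had 226, 228 and 79.8 against 72.7, 66.2 and 58.3 (log2FC 1.44, FDR 1.6e-08). In each of these clone 3 is the iPSC library nearest to the ESCs. Adgrg6, an adhesion G protein-coupled receptor, had 612, 356 and 111 against 86.2, 106 and 73.6 (log2FC 2.02, FDR 3.2e-07). Spink10, of a serine protease inhibitor family, had 591, 135 and 71.7 against 27.8, 52.6 and 19.7 (log2FC 3.0, FDR 1.2e-05). Plekha2, a phosphoinositide-binding adaptor on chromosome 8, had 1673, 1500 and 1127 against 662, 525 and 563 (log2FC 1.30, FDR 2.2e-07). It was a DEG in each fit that left out 1 library, which naming by size required.

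Among the few lower DEGs were FGF ligands. Fgf18 had 8.98, 6.94 and 9.09 normalised counts in KO iPSCs and 39.5, 37 and 61.9 in KO ESCs (log2FC -2.48, FDR 1.1e-07), and Fgf17, of the same subfamily, 57.9, 121 and 207 against 316, 404 and 479 (log2FC -1.64, FDR 0.004). Napsa, an aspartic protease, had 317, 412 and 302 against 623, 950 and 939 (log2FC -1.28, FDR 3.4e-09), and Tgm1, a transglutaminase, 256, 444 and 386 against 696, 824 and 795 (log2FC -1.09, FDR 1.9e-05). In all 4 the groups did not overlap, which naming by size or by FDR required. With clone 3 alone the log2FC was -2.35 for Fgf18 (FDR 0.013), -1.47 for Napsa (FDR 1.6e-05), -1.0 for Tgm1 (FDR 0.024) and -0.95 for Fgf17 (FDR 0.247). Pqlc1, a PQ-loop membrane protein, had 200, 179 and 214 against 428, 401 and 486 (log2FC -1.15, FDR 1.1e-07). Gli1, the Hedgehog transcription factor, had 547, 699 and 1755 against 1901, 2240 and 2388 (log2FC -1.12, FDR 0.005), and was named after its values were seen. It did not pass without clone 1 (FDR 0.108) or clone 2 (FDR 0.052).

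Glycolysis and hypoxia genes were the metabolic list with most calls. Of 25 tested glycolysis and hypoxia genes, 8 were higher and 0 lower, with a median log2FC of 0.27, beside 4.06% higher and 2.19% lower among all genes. Pgk1, phosphoglycerate kinase, had 42795, 43529 and 42285 normalised counts against 34309, 32245 and 33403 (log2FC 0.36, FDR 0.001), and Pfkm, a phosphofructokinase, 2127, 1408 and 1570 against 1101, 978 and 1124 (log2FC 0.67, FDR 1.5e-05). Egln3, an oxygen-sensing prolyl hydroxylase, was the only DEG of the list (log2FC 1.02, FDR 6.1e-04), and Hk1, Ndrg1, P4ha1, Pfkp and Tpi1 had log2FCs of 0.26 to 0.66. Without clone 1 the count was 4 and without clone 2 it was 11. With clone 3 alone 3 of the list were called, and in the fit of only the KO libraries 4. In WT cells 0 of 24 passed in DESeq2 (1 at an unadjusted p under 0.05), where 2.11% of all genes were higher. None of 13 respiratory chain genes passed in KO cells in DESeq2 or in edgeR (0 at an unadjusted p under 0.05).

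The other lists had 0 to 3 calls each, to be read beside the 6.25% of all genes that were called. Dnmt3a, a de novo DNA methyltransferase, was the only one of 14 DNA methylation genes to pass (6401, 3555 and 3655 against 3682, 2272 and 2036, log2FC 0.77, FDR 8.2e-04), and did not pass without clone 1 (0.44, FDR 0.110). Trim28, the corepressor that KRAB zinc finger proteins recruit, was the only one of 13 corepressor genes, with 44880, 48677 and 48156 against 59547, 56857 and 55897 (log2FC -0.28, FDR 7.5e-04). Of 23 PRC2 and BAF subunits, Suz12 (0.19) and Smarca2 (1.04) were higher and Epop (-0.59) lower by log2FC. Id2, a helix-loop-helix inhibitor, was the only one of 14 BMP and Id genes (log2FC -0.65, FDR 8.0e-05), and Axin2 the only one of 12 Wnt target genes (log2FC 1.03, FDR 0.016). Aldh18a1, Mthfd2 and Psat1, enzymes of amino acid and folate metabolism, were lower among 34 ATF4 response genes (log2FC -0.50, -0.44 and -0.42), with 0 called in edgeR. That count moved widely with single libraries, from 11 lower without KO iPSC clone 3 and 7 lower without KO ESC clone 1 to 0 without KO iPSC clone 1, KO ESC clone 2 or KO ESC clone 3, and to 1 higher and 0 lower without KO iPSC clone 2. Ier3 (1.01) and Phlda1 (1.06) were higher among 17 ERK target genes, Cdkn1a (0.48) higher and Tigar (-0.46) lower among 25 p53 target genes, Kdm5d (1.76) higher among 9 X inactivation and Y-linked genes, Zc3hav1 higher among 25 interferon response genes, and Eomes higher among 6 trophoblast markers. Without clone 1 the calls of Suz12, Smarca2, Axin2, Phlda1, Cdkn1a, Kdm5d and Eomes were lost. All of these but Kdm5d were also lost without KO ESC clone 2 and without KO ESC clone 3. Of the fits that left out 1 library, Suz12 passed only in that without KO iPSC clone 2, where Cdkn1a did not. The calls of Trim28, Epop, Id2, Ier3, Tigar and Zc3hav1 passed in each fit that left out 1 library. In the fit of only the 6 KO libraries Trim28, Ier3 and Zc3hav1 still passed. Epop, Id2 and Tigar did not (DESeq2 FDR 0.067, 0.068 and 0.099). Without clone 3 the interferon list had 6 higher. No member passed among 8 genes of the 2-cell-like state, 22 germline, 20 epithelial, 15 LIF-STAT3, 27 cell cycle, 18 lysosome, 20 cholesterol synthesis and 10 neural genes and 4 engineered loci in DESeq2 or in edgeR (0, 2, 3, 3, 3, 0, 3, 4 and 1 at an unadjusted p under 0.05). With clone 3 alone 2 epithelial and 1 cholesterol synthesis genes passed, and with 1 library left out up to 4 members of any of these lists did.

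The fibroblast markers had 1 call in each direction, to be read beside the 6.25% of all genes tested that were called. Of 29 tested fibroblast markers, Col5a2, a fibrillar collagen, was higher (66.9, 46.9 and 35.4 against 14.4, 20.4 and 8.07 normalised counts, log2FC 1.81, FDR 3.2e-06) and Acta2, smooth muscle actin, lower (log2FC -1.82, FDR 0.033). Col5a2 passed in each fit that left out 1 library, and Acta2 did not without KO iPSC clone 1 or 2 or KO ESC clone 2 or 3. The summed count of the 30 listed markers was 47920 to 56226 in KO iPSCs, 41609 to 46333 in KO ESCs and 1013837 to 1043851 in MEFs. Of the 229 higher DEGs, 169 (73.8%) were also higher in WT MEFs than in WT ESCs by the DEG definition, while 30.4% of all genes tested were. The share was 73.9% of 69 without clone 1, 77.7% of 211 without clone 2, 66.1% of 448 without clone 3 and 80.6% of 31 with clone 3 alone. Among the 19 lower DEGs the share was 47.4%. Igfbp4, an IGF-binding protein, is 1 higher DEG of this kind with 427, 125 and 246 against 81.7, 90.5 and 127, and 26933 to 28857 in MEFs. The 30.4% of all genes was not matched for expression. Of the 229 higher DEGs, 147 had a KO iPSC mean under 100 normalised counts. The filter that decides which genes are tested uses the mean over all 36 libraries, MEFs among them. How much of the excess comes from this was not tested.

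The WT comparison used no library of the KO comparison. All 3 WT iPSC libraries stood apart over a stretch as well, with medians over the WT ESC mean of 0.56 on chromosome 8 and -0.76 on proximal chromosome 6 in replicate 1, -0.79 in the middle of chromosome 1 in replicate 2, and -0.75 in the chromosome 14 segment in replicate 3. Their part in the WT DEGs and in the differences between KO and WT gaps, among them those of the chromosome 8 genes Col4a1 and Col4a2, was not tested. WT iPSCs and WT ESCs differed by 35 DEGs (0.275% of 12708 tested, where 3.2% had an FDR under 0.05), 19 higher and 16 lower. Grb10, H19, Phlda2, Plagl1 and Tmem173 were DEGs in the same direction in both, which is 2.02% of the KO and 14.3% of the WT DEGs. Tmem173, the cytosolic DNA sensor STING, had 29.9, 40.8 and 7.07 normalised counts against 6.28, 0 and 0.897 in KO cells. Irgm1, an interferon-induced GTPase, was a DEG in both with opposite sign, at 73.9, 39.1 and 43.4 against 10.8, 17.5 and 34.1 in KO cells and 7.77, 25 and 38 against 54.2, 54.7 and 55.6 in WT cells. The test of the difference between both gaps gave 245 genes of 16031 at FDR < 0.05 (1.53%), and 62 of the 226 KO DEGs that could be tested were among them. The KO gap by which these DEGs were chosen is part of that difference. A share above that of all genes was therefore favoured in advance, and does not show that the DEGs are particular to KO cells.

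For the imprinted genes that were DEGs in both, the difference between KO and WT gaps did not pass, with FDRs of 0.471 for Plagl1, 0.949 for H19, 0.622 for Grb10 and 0.851 for Phlda2. The SE of the difference is large, and a p that misses the threshold does not show that the gaps are equal. Mest, a paternally expressed hydrolase gene, and Ube3a, a ubiquitin ligase, were the imprinted genes of 36 tested whose gaps differed. Mest had 2308, 3131 and 2801 normalised counts in KO iPSCs and 2447, 2154 and 2375 in KO ESCs (log2FC 0.24), but 6930, 4281 and 4948 in WT iPSCs and 2253, 2251 and 2660 in WT ESCs (log2FC 1.17), a difference of -0.93 (FDR 0.015).

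**Figure D5:**
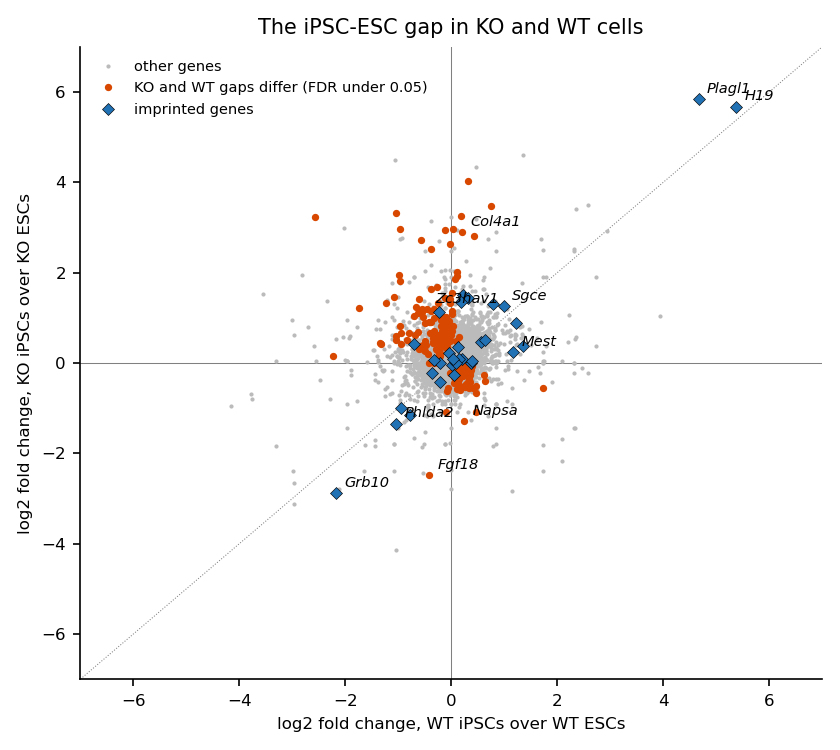
Log2 fold change of WT iPSCs over WT ESCs (x) and of KO iPSCs over KO ESCs (y) for 12708 genes with an FDR in both comparisons, with orange points for genes whose gaps differ at FDR < 0.05 and blue diamonds for imprinted genes. The dotted line marks equal change. Plagl1, H19 and Grb10 have the same sign in both (KO and WT 5.84 and 4.67, 5.68 and 5.38, -2.88 and -2.18). Col4a1 and Zc3hav1 have a large KO and a small WT value (2.90 and 0.21, 1.19 and -0.45), and Mest the reverse (0.24 and 1.17).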

How the data were processed

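Libraries from a stranded mRNA kit were sequenced in 36 samples of 12 groups, 3 replicates each. Per the labels and the study's methods, the authors trimmed reads with cutadapt, checked them with FastQC, aligned them by STAR to GRCm38.p6 and made the gene table by Rsubread. The authors deposited raw counts for 21442 genes, which are the values used here. The strand setting of the counting is not given in the sources used here. Tables with the authors' own fold changes, p-values and normalised or log values were not used.

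Counts were fitted in R 4.3.3 with DESeq2 1.42.0 over all 36 libraries with 1 factor of 12 levels (median-ratio size factors, Wald test, default independent filtering, no shrinkage), following the study's methods. DEGs had Benjamini-Hochberg FDR < 0.05 and |log2FC| > 1, and FDR means this adjusted p throughout. KO iPSCs were compared with KO ESCs, WT iPSCs with WT ESCs, and both gaps with each other. Alternatives were edgeR 4.0.16 (quasi-likelihood, TMM), the compared groups alone, other scaling and filters, a test against a log2FC of 1, a replicate block, and leaving out each library. Fits were tested on simulated counts before use. A count of 0 allows up to 3 reads, and counting intervals cover counting error only.

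Named genes were Zfp266, members of 29 lists, up to 10 DEGs per direction by size (higher-group mean of at least 200 normalised counts, no overlap of libraries, called in all 6 leave-one-out fits), 5 per direction by FDR, and 5 by FDR in the difference of gaps. Members, lists and rules were chosen with earlier results of these data known. Segments of chromosomes and clone 3 alone were added after seeing the data. Gene positions are from GENCODE for the same build, matched by Ensembl identifier for all 21442 genes. All samples have columns, and none was left out of the fit.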

Additional observations from a re-analysis of the deposited data

Results flagged for a closer look

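The iPSC-ESC gap of KO cells was tested against that of WT cells by an interaction contrast in DESeq2. Differences are the KO minus the WT log2FC. They passed FDR < 0.05 for 25 of the genes chosen by rule or list. Of these, 5 were chosen for the lowest FDR in this same test, so that their passing was fixed in advance. Some others were chosen by the KO gap, which is part of the difference. Among all 16031 genes tested, 1.53% passed. Matrix and signalling genes with a larger gap in KO cells were Col4a2 (2.94), Col5a2 (2.78), Col4a1 (2.68), Adgrg6 (1.91), Elf4 (1.55) and Ier3 (1.11). Zc3hav1 (1.64) lies in a stretch of chromosome 6 (chr6:33249085-38609470) where WT iPSC replicate 1 had a median log2 level of -0.76, and its normalised counts there were 332, against 402 and 507 in the other WT iPSC replicates. The part of that stretch in the difference was not tested.

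Metabolic and stress genes with a larger gap in KO cells were Acaa2 (1.16), Ddit4 (0.81), Cdkn1a (0.69), P4ha1 (0.62), Pfkp (0.55) and Pgk1 (0.46), and Arih2, a ubiquitin ligase, differed by 0.58. Genes with a negative difference were Fgf18 (-2.06), Napsa (-1.52), Tgm1 (-1.0), Foxp1 (-0.98), Mest (-0.93), Atf5 (-0.88), Fam208b (-0.74), Jarid2 (-0.53), L1td1 (-0.47) and Ube3a (-0.37). For Foxp1, a forkhead factor, the normalised counts were 1495, 1676 and 1856 in KO iPSCs against 2908, 2361 and 2153 in KO ESCs, and 2853, 2552 and 2734 in WT iPSCs against 1983, 2040 and 2089 in WT ESCs, so that iPSCs were lower in KO cells and higher in WT cells, without overlap in either. Gm34425 had a fitted difference of -23.26 that rests on 1 library, with 218 normalised counts in WT iPSC replicate 1 and 0 in the other 11 pluripotent libraries, and is no estimate of a fold.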

How the results depend on the processing

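The number of KO DEGs was 248. It was 68 with only the compared groups, 7 when tested against a log2FC of 1, 1080 by FDR alone, and 80 to 553 when 1 library was left out, lowest without KO iPSC clone 1 and highest without KO iPSC clone 3. Chosen after seeing the data, only the compared groups without clone 2 gave 75 (47 of them shared with the 248) and clone 3 alone 40. edgeR gave 186, TMM factors 243, and no independent filtering 253. WT DEGs (35) became 17 in edgeR, 16 with only the compared groups, 5 against a log2FC of 1, 407 by FDR alone and 14 to 265 with 1 library left out (14 and 18 without WT ESC replicate 1 or 2, 21 and 265 without WT iPSC replicate 1 or 3). Genes whose KO and WT gaps differ (245) became 63 in edgeR, 48 with only the compared groups, 1 against a log2FC of 1, 96 with |log2FC| > 1 added, and 129 to 593 with 1 library left out (147, 446 and 593 without KO iPSC clone 1, 2 or 3, 159 without KO ESC clone 2, 416 and 568 without WT iPSC replicate 1 or 3, 132 and 129 without WT ESC replicate 1 or 2). The cause of these changes was not tested.

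With the replicate number as a block 241 KO DEGs were called. The number pairs nothing in the labels. Same-numbered KO iPSC and KO ESC libraries share only a number, with correlations of their deviations of 0.066, -0.12 and 0.263, so the block is no pairing. Some directions turned. With clone 3 alone the log2FC was -0.98 for Cd200, -0.48 for Cpe, -0.09 for Cpsf2, -0.18 for Dab2, -0.26 for Dglucy, -0.09 for Gata4, -0.22 for Ly6a, -0.14 for Nt5e, -0.15 for Psmc1, -3.89 for Serpina3m (0 counts in clone 3), -0.41 for Smarca2 and -0.43 for Tns1. With 1 library left out it ranged from -0.35 to 2.05 for Amn and from -0.46 to 2.19 for Dab2, lowest without KO iPSC clone 1 for both. In edgeR 110 of 135 named KO calls were kept, and with only the compared groups 53. Calls lost with only the compared groups included those of Phlda2, Snrpn, Impact, Cpe, Dnmt3a, Sparc and Gli1. That fit called 0 naive pluripotency factors higher and 1 lower, and 5 lower when clone 2 was also left out. Depth limits the genes under 100 normalised counts, which are most of the higher DEGs.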
